A study of Mus musculus with 18 samples.

Results

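The start of mouse chromosome 11 is the stretch from its centromeric end up to position 20000000, and its contacts with the Il4 gene were read by 4C. Its members were the 2580 array positions on chromosome 11 that start at or before 20000000, of 384942 positions on the array and 18333 on chromosome 11. They ran from 3005075 to 19997268 with a median spacing of 5129 bp and filled 34 of the 5021 bins of 500 kb that were tested across the genome, with 64 to 89 positions a bin. Coordinates are those of mm8, inferred from the positions: 0 of 21 chromosomes had a position past the end of its mm8 sequence, against 5 for mm9 and 8 for mm10. The highest signal of the Il4 arrays lay in the bin from 53000001 to 53500000 in 3 of 8 arrays and in the next bin in the other 5, and the first of these was taken as the bait, so the members lay 33.3 to 50.2 Mb from it. The 4C libraries of Il4 were made in primary CD4+ T cells of 4 kinds with 2 arrays each: Stat6 KO Th2 cells, Th2 cells from a Stat6 knockout for which the labels give no allele, Th2 cells, Th1 cells and naïve CD4 T cells. Another 10 arrays of the series had the Ifng gene, on chromosome 10, as bait and served as background for chromosome 11. They came, 2 each, from naïve, Th1 and Th2 cells, from Th1 cells of a Stat4 knockout and from the cell line 3T3-L1. This background thus mixes cell types and a further genotype.

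In 4C, chromatin is crosslinked, cut and ligated, so that fragments lying close together in the nucleus become joined, and whatever was joined to a chosen gene, the bait, is then amplified from it. Here it was labelled with Cy5 and hybridised against cut genomic DNA in Cy3, and the value is the log2 ratio of the pair, where 0 stands for the median of all positions off chromosome 11 in the same array. Contacts fall with distance along a chromosome, and a chromosome keeps to a territory of its own in the nucleus, so far contacts on the bait chromosome are commonly found above those on other chromosomes. Active and silent stretches of a chromosome tend to meet their own kind, which gives far contacts in blocks. Il4 encodes interleukin 4, the signature cytokine of Th2 cells, and STAT6 is the transcription factor that acts downstream of the interleukin 4 receptor. The series title names STAT binding and nuclear architecture in differentiating T cells as its subject. Mouse chromosomes carry the centromere at the end where numbering begins.

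The labels limit how the groups can be read. The design text calls the arrays individual biological replicates except for 1 made from a pool, which it does not name, and no label ties a replicate to a mouse or a culture, so the spread between arrays may be partly technical. The protocol text describes adherent cells and other baits. The arrays read contacts and not expression, so loss of Stat6 was not checked. In the Stat6 KO Th2, Th1 and naïve pairs, at least 99.8% of sorted values agreed within 0.011 between replicates, against 10.8% in the Th2 pair, so the spread within a pair may have been narrowed before deposit. Il4 Th2 replicate 2 had a higher correlation over all positions with Ifng Th1 replicate 2 (r = 0.35) than with its own replicate (r = 0.24), whereas over the 34 bins described here it had r = 0.13 with that Ifng array and 0.81 with its own replicate. Differences and bin counts that rest on it are given with and without it, and values of stretches are given by array.

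By cytogenetic bands of the array's build, the members fall in 11qA1 (1506 positions), 11qA2 (605) and the part of 11qA3.1 before 20000000 (469). Of 24 genes listed for these bands, 24 were found in a RefSeq table of GRCm38.p6, a later build, and 21 lay far enough inside a band to be placed there; they were not placed in bins. 11qA1 holds 106 protein-coding genes in that table (8.12 per Mb), against 10 in 11qA2 (2.38 per Mb) and 16 in the whole of 11qA3.1 (3.43 per Mb). Among the genes of 11qA1 are those of the cytokines oncostatin M (Osm, the 37th of 106 in chromosomal order) and leukaemia inhibitory factor (Lif, the 38th), both of which signal through STAT proteins. The transcription factor genes Xbp1, which acts in the unfolded protein response and in plasma cells, and Ikzf1, which encodes the lymphocyte regulator Ikaros, are the 58th and the 102nd. Nf2 and Ewsr1, known from tumour biology, lie between Lif and Xbp1, the kinase gene Camk2b follows (the 71st), and Igfbp1 and Igfbp3, whose products bind insulin-like growth factors, are the 88th and 89th. The DNA damage checkpoint gene Hus1, the uridine phosphorylase gene Upp1, the decarboxylase gene Ddc, the adaptor gene Grb10 and the actin nucleator gene Cobl follow to the end of the band, and the DNA polymerase genes Polm and Pold2 precede Camk2b. The homeobox gene Meis1, the MAP kinase pathway inhibitor Spred2, the actin-related gene Actr2 and the trafficking GTPase gene Rab1a were placed in 11qA3.1, and Egfr, Plek and Cnrip1 lay near a band edge and were not placed. 

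Promoters of 3 immune genes of 11qA1 are shown because the series is about STAT proteins. Each is the 300-base window round a RefSeq start, on the plus strand of GRCm38.p6, and capitals mark matches to the STAT-type motif TTCNNNGAA, which reads the same on both strands in its fixed letters.
Lif, chr11:4257318-4257617: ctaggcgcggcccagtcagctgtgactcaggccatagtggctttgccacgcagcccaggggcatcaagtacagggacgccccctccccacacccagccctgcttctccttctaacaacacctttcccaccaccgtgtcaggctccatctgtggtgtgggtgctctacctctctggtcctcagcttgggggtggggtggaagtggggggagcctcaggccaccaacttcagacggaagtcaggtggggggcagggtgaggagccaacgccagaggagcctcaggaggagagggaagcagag
Xbp1, chr11:5520391-5520690: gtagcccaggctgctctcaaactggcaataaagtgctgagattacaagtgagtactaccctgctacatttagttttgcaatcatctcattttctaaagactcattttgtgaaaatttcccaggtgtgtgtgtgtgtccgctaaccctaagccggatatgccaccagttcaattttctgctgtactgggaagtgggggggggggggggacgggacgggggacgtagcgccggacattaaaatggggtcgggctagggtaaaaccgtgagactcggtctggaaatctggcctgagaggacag
Ikzf1, second RefSeq start, chr11:11689927-11690226: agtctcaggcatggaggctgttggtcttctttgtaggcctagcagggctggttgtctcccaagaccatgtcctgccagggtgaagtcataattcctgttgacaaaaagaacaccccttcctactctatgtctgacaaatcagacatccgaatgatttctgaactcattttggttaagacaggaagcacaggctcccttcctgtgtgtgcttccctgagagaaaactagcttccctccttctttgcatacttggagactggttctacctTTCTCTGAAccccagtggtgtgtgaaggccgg
The motif occurred in 1 place of the Ikzf1 promoter, as TTCTCTGAA from base 269, and did not occur in the other 2 or in the window of the first Ikzf1 start. It was found in 6 of 118 promoters of protein-coding genes placed in 11qA1 (5.08%), 2 of 3 of 11qA2 and 0 of 15 of 11qA3.1, against 8.17% of the promoters of all genes on chromosome 11 and 8.30% of all 32851 promoters. A match describes these letters only.

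The start of chromosome 11 stood above background in every Il4 array, weakly and unevenly. Its mean log2 ratio was 0.21 and 0.23 in Stat6 KO Th2 cells, 0.088 and 0.095 in Th2 cells, 0.16 and 0.34 in Th1 cells and 0.27 and 0.29 in naïve cells. The Th2 arrays were the lowest 2 of the 8, the naïve and Stat6 KO Th2 pairs were each tight, and the Th1 arrays lay on either side of both pairs. In the 10 Ifng arrays the same positions averaged 0.015 to 0.047, below every Il4 array. The median over positions stayed between 0 and 0.065 in the Il4 arrays, so the mean was carried by a minority of positions. The share of the members among the highest 5% of positions of their array was 11.05% and 11.8% in Stat6 KO Th2 cells, 8.14% and 6.40% in Th2 cells, 8.37% and 14.8% in Th1 cells and 14.9% and 16.9% in naïve cells, against 2.83% to 4.19% in the Ifng arrays.

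The chromosome of the bait was set against other chromosomes at the same place. The starts of the 18 other autosomes, up to the same position, averaged -0.022 to 0.040 in the Il4 arrays. The start of chromosome 11 exceeded them by 0.19 ± 0.094 (SD, n = 8 arrays), in 8 of 8 arrays, and the two-sided exact sign-flip permutation test gave p = 0.0078, the smallest that 8 arrays allow. The other side of the bait was compared at the same distance, from 86503146 to 103493073. That distal stretch averaged 0.40 and 0.40 in Stat6 KO Th2 cells, 0.21 and 0.21 in Th2 cells, 0.42 and 0.71 in Th1 cells and 0.75 and 0.87 in naïve cells. The start of the chromosome was lower than it by 0.28 ± 0.17 (SD, n = 8; start minus distal -0.28) in 8 of 8 arrays, with the same exact p = 0.0078. Contacts at equal distance were thus unequal on the 2 sides of Il4, in all 4 groups. The direction was not particular to the Il4 bait, since the distal stretch was also above the start in each Ifng array. There the distal stretch averaged 0.038 to 0.12 and the start 0.015 to 0.047.

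**Figure D1:**
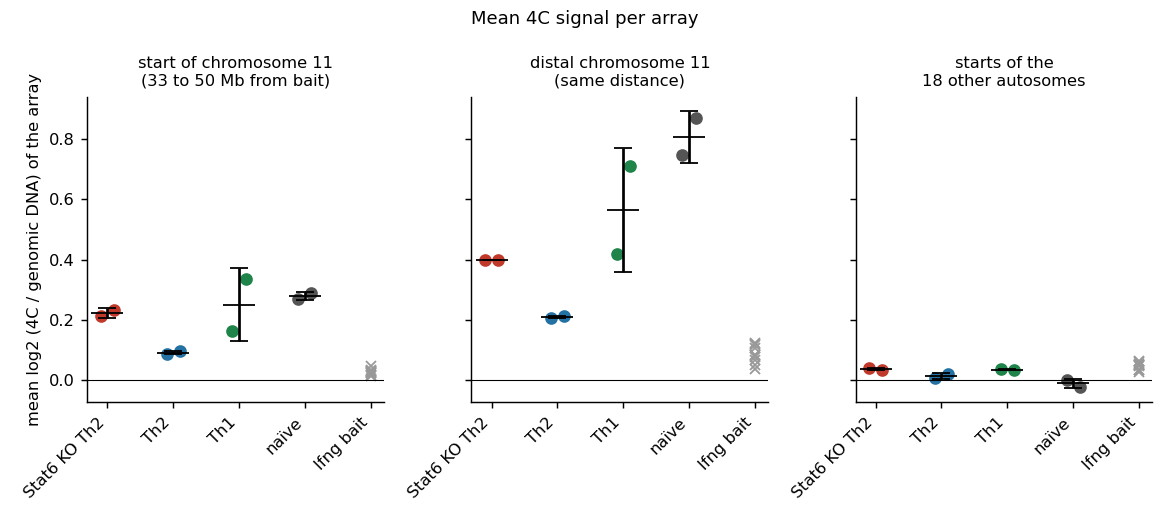
Mean log2 ratio of each array over the start of chromosome 11, the distal stretch of chromosome 11 at the same distance from Il4, and the starts of 18 other autosomes; circles are the 2 arrays of a group, bars their mean and SD, crosses the 10 Ifng arrays. The start lies between 0.088 and 0.34 in the Il4 arrays, below the distal stretch and above the other autosomes.

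The difference of the mean over the start between the 4 groups did not pass the exact permutation test (F = 3.54, p = 0.162, where 0.00952 is the smallest possible). The Th1 pair had the widest spread of the 4. Without Th1 replicate 1 F was 111 and without Th1 replicate 2 it was 78.5. No spread within Th1 cells then enters F, so these values cannot decide whether the groups differ. Stat6 KO Th2 arrays averaged 0.22 ± 0.016 and Th2 arrays 0.091 ± 0.0053 (SD, n = 2 each), a difference of 0.13 with no overlap of the arrays. Against naïve cells (0.28 ± 0.014), Stat6 KO Th2 cells differed by -0.055 and Th2 cells by -0.19, again with no overlap. Th1 cells (0.25 ± 0.12) overlapped with Stat6 KO Th2 cells (Stat6 KO Th2 minus Th1 -0.028) and with naïve cells (Th1 minus naïve -0.027), and lay above Th2 cells (Th2 minus Th1 -0.16). Without Th2 replicate 2, Stat6 KO Th2 minus Th2 was 0.13, Th2 minus Th1 -0.16 and Th2 minus naïve -0.19. With 2 arrays against 2 the exact permutation test cannot give less than p = 0.333, which it gave for the 4 pairs without overlap (0.5 after Benjamini-Hochberg adjustment over 6 comparisons) and p = 1 for the other 2. Within the array serial series that held both groups, Th2 minus naïve was -0.20 and -0.17, Th2 minus Th1 -0.16 and Th1 minus naïve -0.018. Centring each array on chromosome 11 itself, in place of the other chromosomes, turned 4 of these differences: Stat6 KO Th2 minus Th1 became 0.020, Stat6 KO Th2 minus naïve 0.12, Th2 minus naïve 0.0059 and Th1 minus naïve 0.098.

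Along the stretch, most of the signal sat in 1 block at the outer end, and a separate peak lay farther in; their limits were set after the values were seen, so they are described without a test. The outermost 8 bins, from 3000001 to 7000000, held 23.0% of the positions and 58.3% to 83.5% of the summed signal of the stretch in the 8 Il4 arrays. The 3 highest bins by the mean of all 8 arrays lay there, at 4000001 to 4500000 (0.90), 4500001 to 5000000 (0.83) and 6000001 to 6500000 (0.76). Past 7000000 the level dropped to 0.084 in the next bin, and the 8 bins up to 11000000 averaged between 0.0087 and 0.12 per array. A peak of 2 bins followed from 11000001 to 12000000 (0.18 to 0.59 per array). From 12000001 to 16500000 the arrays averaged -0.081 to 0.064, and the 3 lowest bins, at 13000001 (-0.038), 14000001 (-0.016) and 16000001 (-0.014), lay there. From 16500001 to 19500000 the averages were -0.020 to 0.18.

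The limit of 20000000 cuts through a rise. The last bin inside, from 19500001, averaged 0.33, with 0.37 and 0.46 in Stat6 KO Th2 cells, 0.17 and 0.23 in Th2 cells, 0.13 and 0.44 in Th1 cells and 0.44 and 0.42 in naïve cells. It was higher than the outer bin of the peak, from 11000001 (0.20). The next bin, outside the limit, averaged 0.51. The bins nearest to Il4 were not the highest of the stretch, since the block at its far end was.

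**Figure D2:**
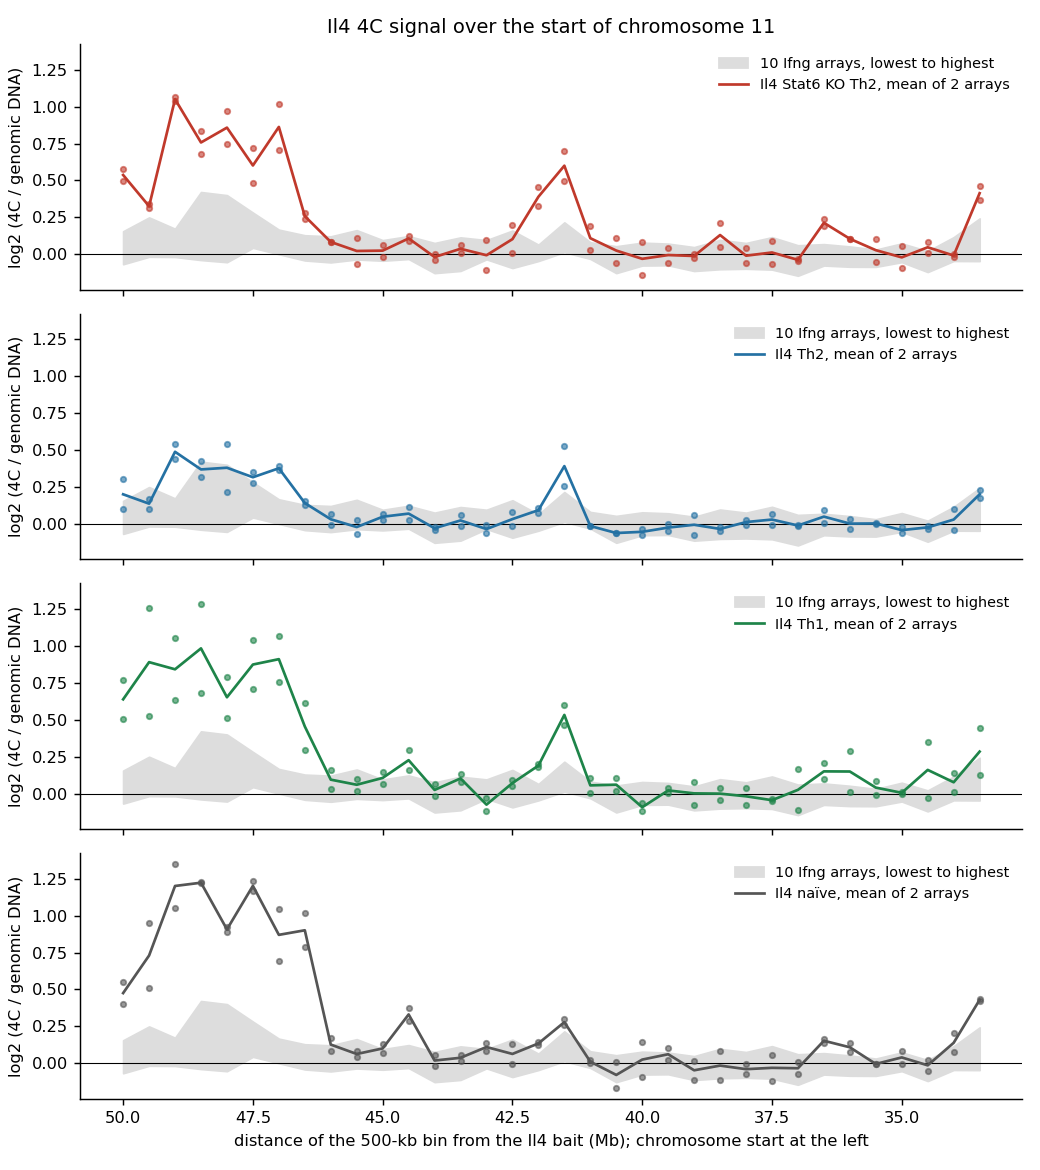
Log2 ratio of the 34 bins of 500 kb by distance from the Il4 bait, with the chromosome start at the left, in Stat6 KO Th2, Th2, Th1 and naïve cells; points are arrays, lines the mean of 2, and the grey band the range of the 10 Ifng arrays. The block at 46 to 50 Mb from the bait and the peak at 41 to 42 Mb rise above the bins beside them in each group, and the block is lowest in Th2 cells.

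The 4 groups shared the shape of the profile and differed in its height. Over the 34 bins the replicate arrays correlated with r = 0.92 in Stat6 KO Th2, 0.81 in Th2, 0.93 in Th1 and 0.96 in naïve cells, and group means correlated with r from 0.87 to 0.97 between groups, as a description over bins of the same arrays. The mean of the Ifng arrays, whose bait lies on another chromosome, had a profile that correlated with that of the Il4 arrays at r = 0.84, but its block averaged only 0.018 to 0.22 per array. By group, the Ifng block was highest in naïve cells (0.18). In 3T3-L1 it averaged 0.046, below the 0.060 of the next 8 bins, and in Th1 cells 0.025, below the 0.034 from 12000001 to 16500000. The shape of the mean was thus partly shared with a bait on another chromosome, at a lower height and not in every Ifng group.

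The block and the peak ranked the groups differently. Over the block, the log2 ratio was 0.72 and 0.59 in Stat6 KO Th2 cells, 0.30 and 0.31 in Th2 cells, 0.58 and 0.99 in Th1 cells and 0.84 and 1.04 in naïve cells. Th2 cells were the lowest group there and naïve cells had the highest mean (0.94 ± 0.14), while Th1 cells overlapped with both Stat6 KO Th2 and naïve cells. Over the peak, it was 0.42 and 0.59 in Stat6 KO Th2 cells, 0.33 and 0.18 in Th2 cells, 0.34 and 0.41 in Th1 cells and 0.20 and 0.23 in naïve cells. Here Stat6 KO Th2 cells were the highest of the 4 groups, without overlap, and naïve cells, highest over the block, lay within the range of the Th2 pair. The block exceeded the peak by 0.30 and 0.0055 in the Stat6 KO Th2 arrays, by -0.037 and 0.13 in the Th2 arrays, by 0.23 and 0.58 in the Th1 arrays and by 0.64 and 0.82 in the naïve arrays. The naïve arrays were the highest in that within-array difference, which no centring can move, and the Th2 arrays, overlapping with the Stat6 KO Th2 pair, had the lowest mean.

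**Figure D3:**
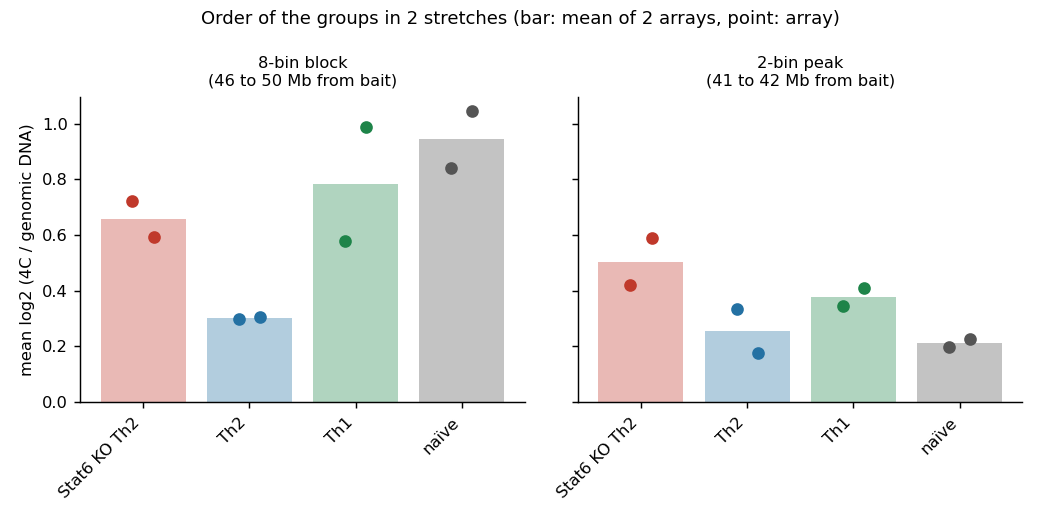
Mean log2 ratio over the 8-bin block (left) and the 2-bin peak (right) in Stat6 KO Th2, Th2, Th1 and naïve cells; bars are the mean of 2 arrays and points the arrays. Naïve cells have the highest bar over the block and the lowest over the peak.

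Bins were compared between groups with limma on all 5021 bins, with Benjamini-Hochberg adjustment over all of them at 0.05, and the 6 comparisons share arrays. The first asked whether contacts of Il4 in Th2 cells depend on Stat6. Between Stat6 KO Th2 and Th2 cells, 0 of 34 bins passed, against 0.0199% of all bins. An unadjusted p under 0.05 was found for 10 of the 34 and for 382 of all 5021 bins. The median difference of the 34 bins was 0.070, against 0.038 over all bins. The bin from 11000001 to 11500000 had the smallest p, with 0.33 and 0.45 in Stat6 KO Th2 cells against 0.11 and 0.077 in Th2 cells (difference 0.30, SE 0.06, limma adjusted p = 0.286). The bin from 4000001 to 4500000 was next, with 1.04 and 1.06 in Stat6 KO Th2 cells against 0.54 and 0.44 in Th2 cells (difference 0.56, SE 0.12, limma adjusted p = 0.295). Neither passed. Fitted on these 4 arrays alone, 6 bins passed, all higher in Stat6 KO Th2 cells, beside 35 of the 199 other bins of chromosome 11 and 45 of all 5021 bins. Without Th2 replicate 2, 0 of 34 bins and 0 of all bins passed; without either Th1 array, which enters the shared spread, 2 of 34 and 15 of all bins did.

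Between Stat6 KO Th2 and Th1 cells 0 of 34 bins passed, against 0% of all bins. An unadjusted p under 0.05 was found for 3 of the 34 and for 311 of all 5021 bins. The median difference was -0.027, against 0.0032 over all bins. The smallest p belonged to the same bin from 11000001, where Stat6 KO Th2 cells had 0.33 and 0.45 and Th1 cells 0.20 and 0.18 (difference 0.20, SE 0.06, limma adjusted p = 0.668), and the next to the bin from 3500001 to 4000000 (difference -0.57, SE 0.19, limma adjusted p = 0.699). Without Th1 replicate 1, 3 of 34 bins passed, beside 67 of the 199 other bins of chromosome 11.

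Between Stat6 KO Th2 and naïve cells 2 of 34 bins passed, both lower in Stat6 KO Th2 cells, against 1.39% of all bins and 56 of the 199 other tested bins of chromosome 11. The bin from 6500001 to 7000000, the innermost of the block, had 0.28 and 0.24 in Stat6 KO Th2 cells against 0.79 and 1.02 in naïve cells (difference -0.64, SE 0.10, limma adjusted p = 0.00902). The bin from 5500001 to 6000000 had 0.72 and 0.49 in Stat6 KO Th2 cells against 1.17 and 1.24 in naïve cells (difference -0.60, SE 0.10, limma adjusted p = 0.0162). In both the arrays of the groups did not overlap. The 2 bins of the inner peak had the opposite sign and did not pass: the one from 11000001 differed by 0.26 (limma adjusted p = 0.0725) and the one from 11500001 by 0.32 (limma adjusted p = 0.161). The median difference was -0.012, against 0.046 over all bins. Without either Stat6 KO Th2 array, or without naïve replicate 2, 0 of 34 bins passed. The Stat6 KO Th2 arrays came from an array serial series of their own, so series and genotype cannot be told apart.

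The comparison of Th2 with Th1 cells asked whether the lineages differ. No bin of the 34 passed (0, against 0.219% of all bins), and 30 of the 34 differences were below 0. An unadjusted p under 0.05 was found for 9 of the 34 and for 317 of all 5021 bins. The median difference was -0.080, against -0.031 over all bins. The bin from 5500001 to 6000000 had 0.28 and 0.35 in Th2 cells against 0.71 and 1.04 in Th1 cells and came nearest (difference -0.56, SE 0.10, limma adjusted p = 0.0534), followed by the bin from 3000001 to 3500000 (difference -0.44, SE 0.10, limma adjusted p = 0.102). Without Th1 replicate 1, the lower of the pair, 8 of 34 bins passed, beside 106 of the 199 other bins of chromosome 11 and 115 of all 5021. Without Th2 replicate 2, 0 of 34 bins and 5 of all bins passed.

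Between Th2 and naïve cells 5 of 34 bins passed, against 2.23% of all bins and 106 of the 199 other bins of chromosome 11, and all 5 were lower in Th2 cells and lay in the block. The bin from 5500001 to 6000000 had 0.28 and 0.35 in Th2 cells against 1.17 and 1.24 in naïve cells (difference -0.89, SE 0.10, limma adjusted p = 0.000767). The bin from 6500001 to 7000000 had 0.13 and 0.15 in Th2 cells against 0.79 and 1.02 in naïve cells (difference -0.76, SE 0.10, limma adjusted p = 0.00144). The bin from 4500001 to 5000000 had 0.32 and 0.42 in Th2 cells against 1.22 and 1.23 in naïve cells (difference -0.85, SE 0.14, limma adjusted p = 0.00879). In these 3 bins no Th2 array exceeded 0.42 and no naïve array was below 0.79. The bins from 4000001 and 5000001 differed by -0.71 (limma adjusted p = 0.0099) and -0.53 (limma adjusted p = 0.0363). The 2 bins of the inner peak, by contrast, differed by -0.041 and 0.11 (limma adjusted p = 1 for each). Without Th2 replicate 2, the array that resembled an Ifng array, 3 of 34 bins passed, beside 54 of the 199 other bins of chromosome 11, and without Th2 replicate 1 4 did, beside 58. Without naïve replicate 2, 2 of 34 passed. The median difference over the 34 bins was -0.083, against 0.013 over all bins.

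Between Th1 and naïve cells 0 of 34 bins passed, against 0.119% of all bins, and 6 had an unadjusted p under 0.05. The median difference was 0.0060, against 0.040 over all bins. The bin from 6500001 had 0.29 and 0.62 in Th1 cells against 0.79 and 1.02 in naïve cells (difference -0.45, SE 0.10, limma adjusted p = 0.157), and the bin from 5500001 differed by -0.33 (limma adjusted p = 0.761). Without Th1 replicate 2, 4 of 34 bins passed, beside 79 of the 199 other bins of chromosome 11 and 86 of all 5021. The bin from 6500001 was lower than in naïve cells in all 3 other groups, and that difference passed in Stat6 KO Th2 and Th2 cells, which share the naïve arrays.

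These counts depend on the centring. Centred on chromosome 11 in place of the other chromosomes, 14 bins passed between Stat6 KO Th2 and naïve cells, 11 higher and 3 lower, beside 3083 of all 5021 bins. Between Th2 and naïve cells 12 passed, 5 higher and 7 lower, beside 2522 of all bins. That centring moved the median of all bins to 0.22 and 0.21 in these comparisons, against 0.046 and 0.013, so most bins of the genome were then higher than in naïve cells. The 7 called differences of the block kept their sign under every setting run on 500-kb bins.

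At a finer scale of 100 kb the groups differed in some bins near the inner edge of the block. In the 100 kb that begin at 6700001, the log2 ratio was 0.16 and 0.13 in Stat6 KO Th2 cells, -0.039 and -0.13 in Th2 cells, 0.12 and 0.52 in Th1 cells and 1.13 and 1.14 in naïve cells. From 6800001 it was 0.24 and -0.092 in Stat6 KO Th2 cells, 0.081 and -0.088 in Th2 cells, -0.022 and 0.68 in Th1 cells and 0.66 and 1.36 in naïve cells. Naïve arrays thus kept the level of the block in these bins. They did not overlap with arrays of the other groups except in the second bin, where Th1 replicate 2 reached the lower naïve array. From 7000001 the ratio was 0.29 and 0.50 in Stat6 KO Th2 cells, 0.035 and 0.20 in Th2 cells, 0.086 and 0.30 in Th1 cells and 0.58 and 0.54 in naïve cells. With that rise in Stat6 KO Th2 cells, an earlier end of the block there was not shown. Slightly farther out the order was turned. From 6300001 it was 1.06 and 1.17 in Stat6 KO Th2 cells, 0.76 and 0.99 in Th2 cells, 0.57 and 0.70 in Th1 cells and 0.076 and 0.55 in naïve cells, so that naïve arrays were the lowest. In the 100 kb from 7100001 no array exceeded 0.21. These 100-kb bins hold 10 to 20 positions and were picked after their values were seen.

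**Figure D4:**
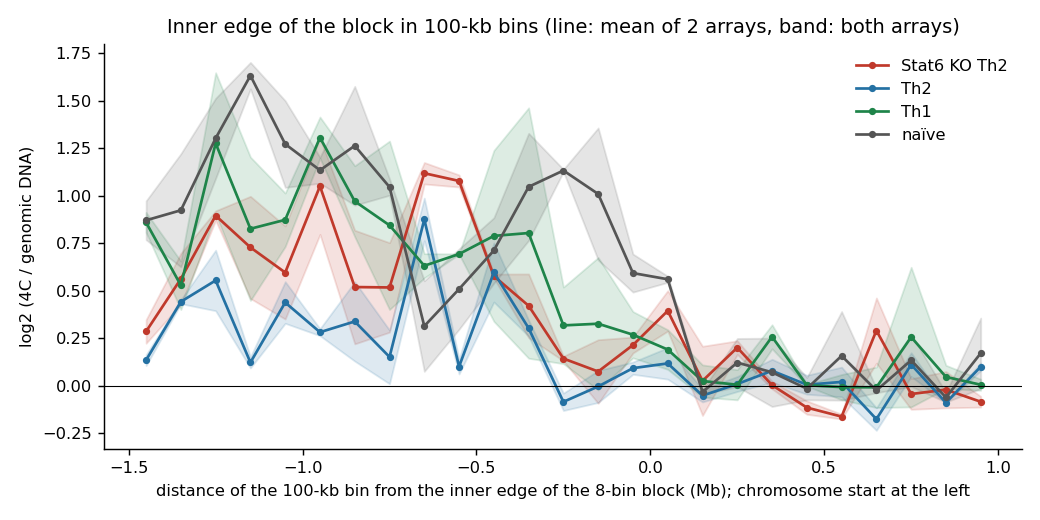
Log2 ratio in 100-kb bins by distance from the inner edge of the block, with the chromosome start at the left, in Stat6 KO Th2, Th2, Th1 and naïve cells; lines are the mean of 2 arrays and bands span both. In the 2 bins from 6700001 and 6800001 the naïve arrays lie at 0.66 to 1.36, where no Stat6 KO Th2 or Th2 array exceeds 0.24.

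The inner peak was sharper than its bins. From 11400001 to 11500000 the log2 ratio was 1.15 and 0.92 in Stat6 KO Th2 cells, 0.53 and 0.14 in Th2 cells, 0.72 and 0.75 in Th1 cells and 0.35 and 0.17 in naïve cells. From 11500001 to 11600000 it was 1.07 and 1.65 in Stat6 KO Th2 cells, 0.65 and 0.25 in Th2 cells, 0.30 and 0.53 in Th1 cells and 0.65 and 0.54 in naïve cells. In both, each Stat6 KO Th2 array was above each array of the other groups. That order did not hold over the rest of the peak. From 11600001 the log2 ratio was 0.66 and 1.22 in Stat6 KO Th2 cells, 0.83 and 0.62 in Th2 cells and 0.66 and 0.75 in Th1 cells. From 11700001 Th2 replicate 1 was the highest array (1.03), against 0.45 and 0.64 in Stat6 KO Th2 cells. From 11800001 Th1 replicate 2 was the highest (0.74), against 0.41 and 0.20 in Stat6 KO Th2 cells. In the mean of all 8 arrays the peak ended by 11900001 (0.072), though Th1 cells still had 0.20 and 0.43 there. The naïve arrays had 0.16 and -0.044, and the Stat6 KO Th2 and Th2 arrays were all negative. The peak began past 11300000, since the mean from 11200001 was -0.047.

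Arrays with a strong signal next to Il4 also had a strong signal at the chromosome start. At 1 to 2 Mb from the bait the log2 ratio was 1.47 and 1.45 in Stat6 KO Th2 cells, 0.96 and 0.78 in Th2 cells, 1.49 and 2.17 in Th1 cells and 1.78 and 1.91 in naïve cells, and the group means ranked as they did over the start. Over the 8 arrays the near level and the mean of the start had Pearson r = 0.96 (exact permutation p = 0.000397, adjusted over 2 tests 0.000794) and Spearman rho = 0.88 (p = 0.00724). Without the 2 arrays farthest from the median of the near level r was 0.94 (n = 6, exact permutation p = 0.00972) and rho was 0.77 (exact permutation p = 0.103), so the relation of ranks did not hold among those 6. Arrays of a group share their cells, whereas the permutations treated all arrays as independent, so these p-values may be too small. The part of the near level, and of whatever sets it, in the differences between groups was not tested. The order of the inner peak, with Stat6 KO Th2 cells first and naïve cells last, did not follow the near level.

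**Figure D5:**
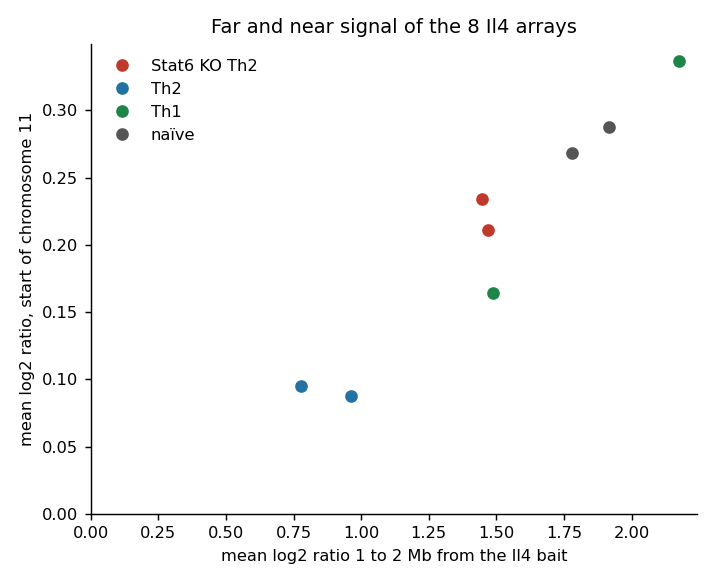
Mean log2 ratio over the start of chromosome 11 (vertical) against that at 1 to 2 Mb from the Il4 bait (horizontal), 1 point per Il4 array, coloured by Stat6 KO Th2, Th2, Th1 and naïve cells. The Th2 arrays are lowest on both axes and Th1 replicate 2 highest on both.

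The bands of the members differed. 11qA1, which holds the block and the peak and most genes, averaged 0.34 ± 0.019 in Stat6 KO Th2, 0.15 ± 0.0047 in Th2, 0.39 ± 0.14 in Th1 and 0.43 ± 0.059 in naïve cells. 11qA2, with the fewest genes, averaged 0.046 ± 0.069 in Stat6 KO Th2, 0.0016 ± 0.015 in Th2, 0.025 ± 0.067 in Th1 and 0.024 ± 0.082 in naïve cells, no more than the spread of its arrays. 11qA3.1 averaged 0.084 ± 0.062 in Stat6 KO Th2, 0.021 ± 0.025 in Th2, 0.11 ± 0.14 in Th1 and 0.10 ± 0.0072 in naïve cells (SD, n = 2 arrays each throughout). The signal was highest in the band with the most genes, and no gene was tied to a bin.

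Elsewhere on chromosome 11, 199 bins more than 1 Mb from the bait were set against the mean of the start over the 8 arrays, where the median r was 0.80 and 27 bins exceeded 0.9. The most alike were the bins from 79500001 (r = 0.99), 34000001 (r = 0.98) and 82500001 (r = 0.97). The bin from 79500001 had 0.75 and 0.72 in Stat6 KO Th2 cells, 0.25 and 0.34 in Th2 cells, 0.64 and 1.24 in Th1 cells and 1.01 and 1.07 in naïve cells, higher than the start in each array. These correlations describe 8 arrays that share their libraries with both sides.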

How the data were processed

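The 8 arrays of Il4 and 10 of Ifng were used, grouped by sample titles and source names into groups of 2. The deposited values are 1 log2 ratio per array position, Cy5-labelled 4C DNA over Cy3-labelled genomic DNA cut with HindIII and Csp6I, per the labels' protocols. For the base of the logarithm, taken as 2, and for scanner software, background correction and any normalization before deposit, nothing is given in the sources used here. The values come in steps of 0.005.

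The median of the positions off chromosome 11 was subtracted from an array's values, which were then averaged per 500 kb where at least 20 positions fell, leaving out bins within 1 Mb of the bait. The members and lists were chosen with earlier results of these data known. The comparison of bins used lmFit, contrasts and eBayes of limma (version 3.58.1, under R 4.3.3) with all 8 Il4 arrays and no replicate block, two-sided, with Benjamini-Hochberg adjustment over 5021 bins at 0.05, and the fit was tested on simulated data. Means per array were compared by exact permutation tests. The number of arrays limits the precision. Bins named are the 3 highest and 3 lowest of the stretch, the called bins of a comparison (where none was called, the 2 with the smallest p) and the 3 bins most alike in pattern; the other bins and the 100-kb bins were picked after their values were seen. Genes come from a list of 24 for the bands, of which 1 is not reported here, placed through RefSeq of GRCm38.p6 and the mm8 and mm10 bands of circlize 0.4.16. Alternatives were bins of 200 and 1000 kb, the median per bin, centring on chromosome 11, scaling by the median absolute deviation, quantile normalization, eBayes with trend and robust settings, the compared groups alone, the replicate number or the array serial series as a block, fits within a series, extreme positions left out, limits of 15 and 25 Mb, and each replicate left out. The replicate numbers gave no consistent pairing of the samples. Permutation tests and plots were made in Python 3.11.15 with scipy 1.17.1 and matplotlib 3.10.9, on tables read with pandas 2.3.3 and numpy 2.4.6.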

Additional observations from a re-analysis of the deposited data

How the results depend on the processing

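The start of chromosome 11 stayed above the starts of the other autosomes and below the distal stretch under all settings run. The mean differences of Stat6 KO Th2 minus Th2 and Th2 minus Th1 kept their sign under all settings run, and the others did not. The size of these differences did not hold. As a mean over bins, Stat6 KO Th2 minus Th2 went from 0.13 to 0.066 with scaling, 0.050 with quantile normalization and 0.036 with the median per bin. Th2 minus Th1 went from -0.16 to -0.098, -0.073 and -0.019 under the same settings. Centring on chromosome 11 turned Stat6 KO Th2 minus Th1 to 0.020, Stat6 KO Th2 minus naïve to 0.12, Th2 minus naïve to 0.0059 and Th1 minus naïve to 0.098; leaving out extreme positions turned Stat6 KO Th2 minus Th1 to 0.0054, and the median of the positions to 0.015. With each replicate left out, Stat6 KO Th2 minus Th1 ran from -0.11 to 0.058 and Th1 minus naïve from -0.11 to 0.059, the turned values coming without Th1 replicate 2 and without Th1 replicate 1, while F of the 4 groups ran from 1.54 to 111.

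Counts of called bins moved most. They are out of 34 bins of 500 kb, 85 of 200 kb or 17 of 1000 kb, so counts at different bin sizes are not alike. For Stat6 KO Th2 minus naïve (2, beside 70 of all 5021 bins) they were 4 of 85 with 200-kb bins (106 of all 12493) and 0 of 17 with 1000-kb bins (43 of all 2518). On 500-kb bins they were 0 with the median per bin (44 of all 5021), 14 with centring on chromosome 11 (3083) and 1 with scaling (25). They were 0 without extreme positions (38), 1 with trend and robust settings (78) and 5 with the compared groups alone (127). For Th2 minus naïve (5, beside 112 of all 5021 bins) they were 8 of 85 with 200-kb bins (203 of all 12493) and 3 of 17 with 1000-kb bins (60 of all 2518). On 500-kb bins they were 2 with the median per bin (57 of all 5021), 12 with centring on chromosome 11 (2522) and 1 with scaling (49). They were 2 with trend and robust settings (61) and 3 with the serial series as a block (65). A fit within a series leaves 1 array in each of these groups, so no count is given for it. It is still among the 18 settings counted below. Stat6 KO Th2 minus Th2 (0) gave 6 with the compared groups alone (45 of all 5021). Th2 minus Th1 (0) gave 1 of 85 with 200-kb bins (14 of all 12493), 4 with centring on chromosome 11 (43 of all 5021) and 1 without extreme positions (16). Th1 minus naïve (0) gave 2 with quantile normalization (41 of all 5021). With each replicate left out, the counts ran from 0 to 2 for Stat6 KO Th2 minus Th2 (2 without either Th1 array), 0 to 3 for Stat6 KO Th2 minus Th1 (3 without Th1 replicate 1), 0 to 3 for Stat6 KO Th2 minus naïve (0 without either Stat6 KO Th2 array or without naïve replicate 2), 0 to 8 for Th2 minus Th1, 2 to 7 for Th2 minus naïve (2 without naïve replicate 2) and 0 to 4 for Th1 minus naïve. The remaining array of a group is then assumed to vary like the others. Of the called bins, that from 6500001 in Th2 minus naïve passed in 17 of 18 settings, that from 5500001 in 15 and that from 5000001 in 6, and none changed sign. In Stat6 KO Th2 minus naïve the bin from 6500001 passed in 11 of 16 settings and that from 5500001 in 8. The cause of these moves was not tested.

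The replicate numbers gave no consistent pairing of the samples, since correlations of same-numbered deviations between groups ran from -0.38 to 0.37. Whether arrays of different groups are linked in another way was not tested. With the replicate block, 0 of 34 bins passed for Stat6 KO Th2 minus Th2 (0 of all 5021). For Stat6 KO Th2 minus naïve 2 passed (66 of all 5021), and for Th2 minus naïve 4 (110). A series block or a fit within a series could not be had for comparisons with Stat6 KO Th2 cells, whose arrays form a series of their own. With 2 arrays a group, small differences in a bin were not detectable.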
